A study of Mus musculus with 4 samples.

Results

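Fatty acid uptake and oxidation was followed through 35 named genes in heart sections of 4 mice. The genes were taken by symbol from the 21885 genes of the count tables, and each symbol matched 1 row. They cover fatty acid uptake and activation (6 genes, with the lipid droplet coat Plin5) and the carnitine shuttle (6, with the malonyl-CoA decarboxylase Mlycd). The others belong to beta-oxidation inside mitochondria (13), electron transfer from beta-oxidation (3), thioesterases with the uncoupling protein Ucp3 (4), and regulators (3). All mice carried the Collagen1a1-GFP+ genotype, a reporter driven by a collagen gene promoter in fibroblasts, and were 8 to 12 weeks old. The control was 1 uninjured heart labelled female. The infarcted hearts had permanent ligation of the left anterior descending artery and were taken 3 days post-infarction (dpi; 1 heart, labelled female) or at 5 dpi (2 hearts, 1 labelled female and 1 labelled male). A section of each frozen heart was measured by spatial transcriptomics on the Visium array, where a spot records the RNA of the several cells above it as unique molecular identifiers (UMIs). The control and 3 dpi groups therefore had no replicate.

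Heart muscle draws most of its ATP from long-chain fatty acids. Lipoprotein lipase frees them at the capillary wall, carriers bring them into the cardiomyocyte, the carnitine shuttle moves them into the mitochondrion, and beta-oxidation cuts them into acetyl-CoA while electron transfer flavoprotein passes the electrons to the respiratory chain. Fasting and the receptor PPAR-alpha are known to raise many of these genes, and ischaemic or failing heart muscle is known to turn towards glucose.

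The kept spots numbered 1146 to 1741 per section and held 6250183 to 11010109 UMIs. Levels were taken as a gene's UMIs per 1000000 non-mitochondrial UMIs (CPM), since mitochondrial transcripts took 40.1% of the UMIs in the control and 13.3% to 21.4% in the infarcted sections. A second scale divided each gene by the UMIs of 12 cardiomyocyte genes (Myh6, Tnnt2, Tnni3, Actc1, Myl2, Myl3, Pln, Mb, Ckm, Tcap, Ryr2 and Ttn), none of them among the 35. The cardiomyocyte genes held 10.1% of the non-mitochondrial UMIs in the control, 4.53% at 3 dpi, 1.98% in the female-labelled 5 dpi section and 3.71% in the male-labelled 5 dpi section. All 12 were present in every section, as the heart label requires. The sex labels of the 5 dpi sections went against the data: 4 Y-linked genes gave 704 UMIs in the female-labelled section and 1 in the male-labelled section. The control and the 3 dpi section had 0. Those sections therefore keep the names of their labels, and no sex difference was drawn.

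Taken over whole sections, the 35 genes held a much larger share of the RNA in the uninjured heart than in any infarcted heart. Their summed level was 28102 CPM in the control, 10605 CPM at 3 dpi, 4879 CPM in the female-labelled 5 dpi section and 10039.9 CPM in the male-labelled 5 dpi section. The exact 95% Poisson interval of the control ran from 27933 to 28273 CPM, and covers counting error only. The plot of spots shows that the low levels lay in patches of the infarcted sections, while the control was even. Fewer cardiomyocytes in a spot and less RNA of a gene per cardiomyocyte cannot be told apart in such sums.

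**Figure D1:**
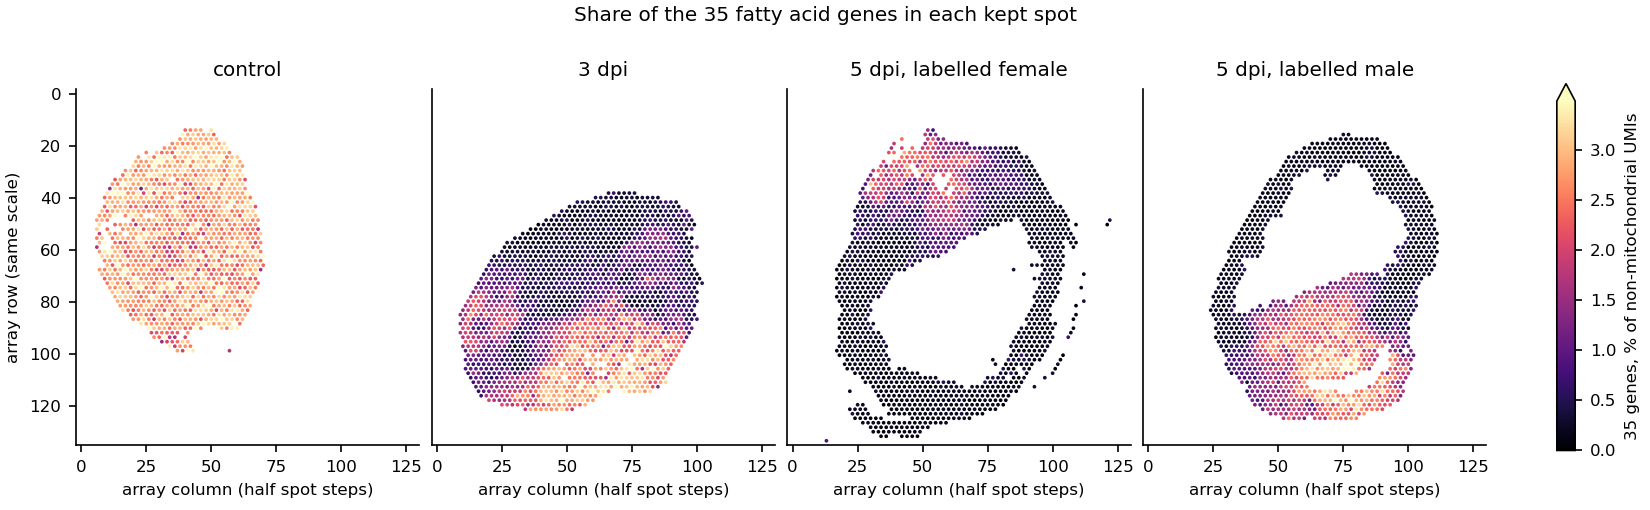
Position of each kept spot on the array (columns and rows in the same scale), 1 panel per section, coloured by the share of non-mitochondrial UMIs held by the 35 genes (percent). The control is bright throughout, with 28102 CPM (2.8%) over the section, while each infarcted section has a dark infarct patch beside bright remote muscle.

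Of the 35 genes, 28 reached 50 CPM in at least 1 section. In the control, 23 of these 28 stood at least 2-fold above the nearest infarcted section, against 8.63% of all 3524 genes at that level. Of the 28, 0 stood 2-fold below, against 26% of all genes. Plin5, Slc25a20 and Acot2 reached 50 CPM in the control alone, so the filter let them in where they were high, and they are among the 23. Cpt1a stayed under 50 CPM in every section and is not among the 28. All 28 lay above the range of the 3 infarcted sections, as did 31% of all genes. The median log2 ratio of the infarcted mean over the control was -1.78 for the 28 and 0.43 for all genes. Other muscle lists moved as well. All 17 citric acid cycle genes were above the range and 12 were past 2-fold, with a median of -1.50. All 12 cardiomyocyte genes were above it and 9 past 2-fold (-1.81), and of 21 other contractile genes 18 and 7 (-1.12). With 1 control heart no test was made. With mitochondrial UMIs counted in the total, 9 of the members were past 2-fold, against 2.47% of all genes.

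Uptake and activation held 4 of the 6 genes at 2-fold. Fabp3, which carries fatty acids through the cytosol of the cardiomyocyte, measured 8681 CPM in the control, 3081 CPM at 3 dpi, 1133 CPM in the female-labelled 5 dpi section and 3998 CPM in the male-labelled section. Lpl, the lipoprotein lipase, measured 2908, 1170, 564 and 721 CPM in the same order. Both were highest in the control, and their 5 dpi hearts differed from each other. Acsl1, which activates long-chain fatty acids with coenzyme A, and Plin5, a coat protein that ties lipid droplets to mitochondria, were also past 2-fold. Cd36, the fatty acid translocase of the plasma membrane, measured 989, 515, 299 and 398 CPM. Slc27a1 (the transport protein FATP1) moved least, with 96.5, 77.4, 65.7 and 58.1 CPM.

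Inside the mitochondrion, 10 of the 13 beta-oxidation genes and all 3 electron transfer genes were past 2-fold. Ech1, an isomerase that handles unsaturated chains, measured 2228 CPM in the control, 599 CPM at 3 dpi, 233 CPM in the female-labelled 5 dpi section and 480 CPM in the male-labelled section. Acadm, the medium-chain acyl-CoA dehydrogenase, had the largest fold in this group, with 743, 168, 91.2 and 189 CPM. Its control interval (716 to 772 CPM) was far from the highest infarcted interval (180 to 199 CPM). Etfb, a subunit of the electron transfer flavoprotein, measured 1591, 686, 321 and 508 CPM. The remaining members above 50 CPM were 4 carnitine shuttle genes and 2 thioesterases, and every such gene was past 2-fold. Crat, which trades acetyl groups between coenzyme A and carnitine, measured 421, 197, 103 and 154 CPM, and Acot13, a thioesterase that frees fatty acids from coenzyme A, measured 885, 387, 173 and 377 CPM.

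Cpt1a, the liver form of the outer mitochondrial carnitine palmitoyltransferase, which fibroblasts and other cells also use, ran the other way. It had 79 UMIs in the control, 243 at 3 dpi, 371 in the female-labelled 5 dpi section and 266 in the male-labelled section. These counts gave 21.1 CPM (interval 16.7 to 26.3), 29.0 CPM (25.5 to 32.9), 38.9 CPM (35.0 to 43.1) and 32.0 CPM (28.3 to 36.1), so the control was lowest, though its interval overlapped that of 3 dpi. Cpt1b, the muscle form that catalyses the same step, had 0, 0, 1 and 1 UMIs. In mouse annotation it is spanned by a readthrough transcript, so these counts cannot be read as its expression. Ppara, the receptor PPAR-alpha, had 5, 5, 1 and 2 UMIs, and Ucp3, an uncoupling protein of muscle mitochondria, had 61, 16, 4 and 27. The coactivator Ppargc1a had 123, 77, 50 and 80 UMIs and the thioesterase Acot1 had 107, 88, 43 and 60. Pdk4, a kinase that shuts pyruvate out of oxidation, stood at 28.1, 13.6, 3.46 and 11.2 CPM. Acot1 and Acot2 are near-identical copies, so reads may have been split between them and both are uncertain.

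**Figure D2:**
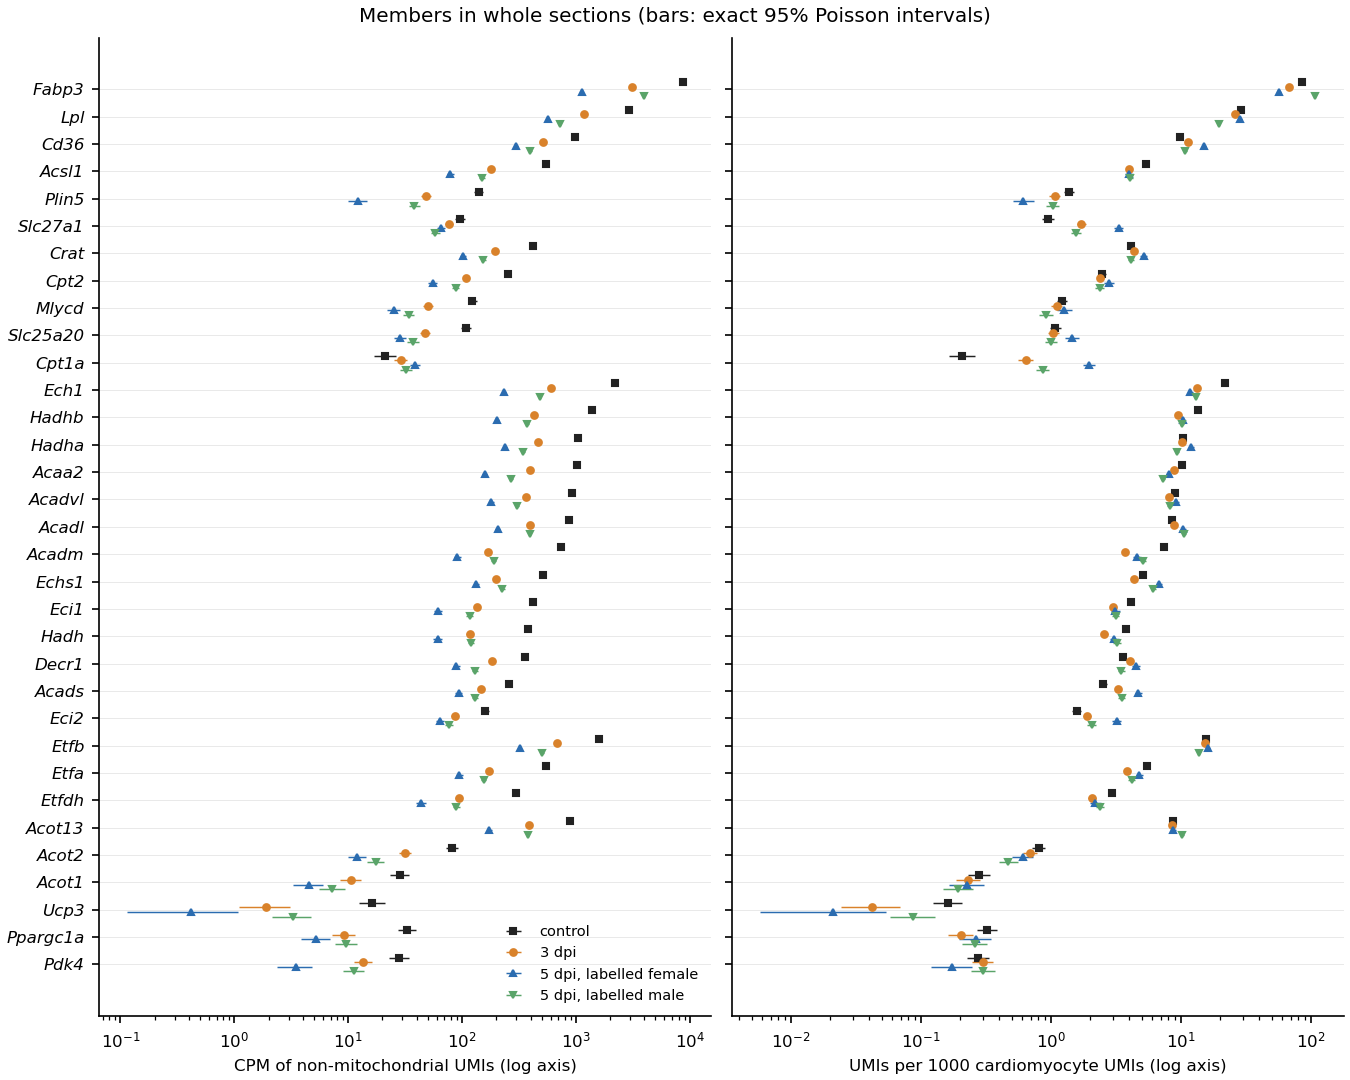
Level of each member with at least 50 UMIs in a section (Ppara and Cpt1b are left out), as CPM (left) and per 1000 cardiomyocyte UMIs (right), both on log axes, with exact 95% Poisson intervals as bars and 1 marker per section. On the left the control marker is the highest for all members but Cpt1a; on the right the control lies within or close to the infarcted sections for most members.

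Per cardiomyocyte UMI the difference between whole sections was small. The 35 genes gave 277 UMIs per 1000 cardiomyocyte UMIs in the control, 234 at 3 dpi, 246 in the female-labelled 5 dpi section and 271 in the male-labelled section. Of the 28 members 0 were 2-fold higher in the control, against 0.199% of all genes, and 0 were 2-fold lower, against 69.9%. The control was above the infarcted range for 12 of the 28 (2.75% of all genes) and below it for 5 (92.1% of all genes). The median log2 ratio was -0.13 for the 28 members and 2.08 for all genes. The 12 cardiomyocyte genes, which form the denominator, had 6 above the range, 4 below it and a median of -0.16. Of 17 citric acid cycle genes 1 was above and 8 were below (0.15), and of 21 other contractile genes 2 and 16 (0.53). Fabp3 took 30.9% of the members' UMIs in the control and 39.8% in the male-labelled section. Without Fabp3 the sums were 192, 166, 189 and 163 per 1000 cardiomyocyte UMIs, so the control remained the highest by a narrow margin. Cpt1a stood at 0.208 per 1000 in the control and at 0.641, 1.96 and 0.863 in the infarcted sections.

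Promoter sequence is shown for 3 members with different patterns: Acadm, with the largest fold against the remote muscle below, Plin5, which had the largest fall as CPM in the infarct zone, and Cpt1a, which went the other way. The 250 bases before the annotated start are from RefSeq (GRCm38.p6), written 5′ to 3′ on the gene's strand. Capitals mark AGGTCA or its reverse complement TGACCT, the hexamer bound by PPAR, RXR and estrogen-related receptors.
Acadm, chr3:153944644-153944893, minus strand: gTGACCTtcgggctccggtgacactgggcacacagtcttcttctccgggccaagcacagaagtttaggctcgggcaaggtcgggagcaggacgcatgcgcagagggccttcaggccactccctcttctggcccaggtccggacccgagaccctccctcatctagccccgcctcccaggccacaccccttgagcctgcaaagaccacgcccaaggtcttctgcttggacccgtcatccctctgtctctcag
Plin5, chr17:56117549-56117798, minus strand: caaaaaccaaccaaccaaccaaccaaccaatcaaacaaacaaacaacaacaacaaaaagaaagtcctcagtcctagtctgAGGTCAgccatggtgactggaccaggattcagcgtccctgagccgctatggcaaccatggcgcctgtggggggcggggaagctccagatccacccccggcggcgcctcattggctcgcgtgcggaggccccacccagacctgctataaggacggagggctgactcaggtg
Cpt1a, chr19:3323051-3323300, plus strand: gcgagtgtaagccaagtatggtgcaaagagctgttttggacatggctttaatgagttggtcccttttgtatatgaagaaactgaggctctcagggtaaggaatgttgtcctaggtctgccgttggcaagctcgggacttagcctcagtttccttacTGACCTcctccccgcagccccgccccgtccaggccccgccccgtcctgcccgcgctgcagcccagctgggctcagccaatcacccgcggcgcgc
The hexamer was found in 7 of the 29 members with a promoter in the table (24.1%), and in 18.1% of 27025 genes, in windows of 300 bases reaching 50 bases past the start. Besides these 3, the genes were Acadvl, Echs1, Cd36 and Ucp3. The longer AAGGTCA, which contains the hexamer, was in 1 member (Acadm, 3.45%) against 5.38% of all genes. The direct repeat of AGGTCA with 1 base between the copies was in 0 of 29 members and 0.0481% of genes, the same repeat with any base at the fourth place of each copy in 0 and 0.451%, and TCAAGGTCA, which contains both shorter motifs, in 0 and 0.466%. Both strands were searched. A match is only a description of the letters. Decr1, Lpl, Acot13, Cpt1b, Crat and Acaa2 had no entry.

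The infarcted sections were then divided by the cardiomyocyte share of each spot. The infarct zone (IZ) was formed by patches of at least 10 spots below 0.5 times the 90th percentile of the section. The near border zone (BZ2) lay 1 to 2 spot steps outside it, the far border zone (BZ1) 3 to 4 steps, and the remote zone (RZ) beyond. The RZ held 380 spots at 3 dpi, 200 in the female-labelled 5 dpi section and 533 in the male-labelled section, BZ2 held 301, 136 and 104, and IZ held 882, 1061 and 684. Zones of a section share a heart, so the 3 hearts are the replicates, and the section entered the edgeR quasi-likelihood test as a block. The zones rest on cardiomyocyte genes alone and not on the members.

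Close to the infarct nearly the whole set held a smaller share of the RNA than in remote muscle. The members summed to 24800.4 CPM in RZ and 14001 CPM in BZ2 at 3 dpi. The female-labelled 5 dpi section gave 18472 and 9818 CPM, and the male-labelled section gave 21942 and 13510.0 CPM. RZ was above BZ2 in each heart. Of the 32 members tested, 29 were lower in BZ2 at an adjusted p under 0.05 and 0 were higher, against 4.73% lower and 3.91% higher among the 9811 genes tested. Cpt1b, Ppara and Ucp3 had too few UMIs for the test. The median log2 fold change was -0.90 for the members and 0.01 for all genes, where TMM scaling itself moved the values by -0.16. The cardiomyocyte share fell alongside, from 9.81%, 8.69% and 8.18% in RZ to 6.73%, 5.43% and 5.99% in BZ2. Leaving out the female-labelled 5 dpi section left 16 members lower, against 0.688% of all genes in that fit, and leaving out the section block 5, against 0.212%.

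All 13 beta-oxidation genes were lower in BZ2. Ech1 showed 1691, 938 and 1101 CPM in RZ of the 3 dpi section, the female-labelled 5 dpi section and the male-labelled section, and 706, 355 and 459 CPM in BZ2. The zones did not overlap, and the log2 fold change was -1.47 ± 0.12 (SE, n = 3 hearts, edgeR adjusted p = 2.24e-07). Eci1, another isomerase of unsaturated chains, followed at -1.42 and Acaa2, the mitochondrial thiolase, at -1.36. The least change among the 13 was that of Acads, the short-chain dehydrogenase, at -0.57 (adjusted p = 0.022). Without the female-labelled section 8 of the 13 were called, with Acadl, Acads, Hadhb, Echs1 and Decr1 lost. Acads was also lost without the 3 dpi section (adjusted p = 0.148), and Eci2 without the male-labelled section (0.0659). The 3 electron transfer genes Etfa, Etfb and Etfdh lay between -1.09 and -0.87, and all were lower.

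Among uptake genes 5 of 6 were lower. Plin5 counted 197 UMIs in RZ and 77 in BZ2 at 3 dpi, against 66 and 17 for the female-labelled 5 dpi section and 247 and 14 for the male-labelled section. This was 148, 78.8 and 99.5 CPM in RZ against 60.4, 24.9 and 27.2 CPM in BZ2, with no overlap and a log2 fold change of -1.72 ± 0.25 (adjusted p = 0.000159). Fabp3 showed 7819, 5680 and 9539 CPM in RZ and 4228, 2838 and 5876 CPM in BZ2. The male-labelled section was the highest in both zones, and its BZ2 overlapped the RZ of the female-labelled section, but each heart fell, with -1.02 ± 0.21 (adjusted p = 0.00311, and 0.104 without the female-labelled section). Slc27a1 was not called at -0.62 ± 0.22 (adjusted p = 0.0899). In the carnitine shuttle group Cpt2, Slc25a20, Crat and Mlycd were lower, at -0.93 to -0.76, while Cpt1a stayed uncalled at -0.04 ± 0.28 (adjusted p = 0.998). Without the female-labelled section 0 of these 4 carnitine genes were called (adjusted p from 0.0588 to 0.107), Mlycd was also lost without the 3 dpi section (0.274), and the uptake genes called fell from 5 to 3, without Fabp3 and Cd36.

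The largest estimates belonged to sparse genes. Pdk4 had 49 UMIs in RZ and 15 in BZ2 at 3 dpi, against 13 and 2 for the female-labelled 5 dpi section and 68 and 3 for the male-labelled section, for -2.10 ± 0.33 (adjusted p = 0.000361). Acot1 had 40 and 7, 4 and 0, and 25 and 2 UMIs in the same order, for -2.36 ± 0.60 (adjusted p = 0.0165). Without the female-labelled section Acot1 had an adjusted p of 0.0528, and without the male-labelled section 0.0766. The smallest called change was that of Acot13 at -0.54 ± 0.16 (adjusted p = 0.0364), also lost without either 5 dpi section (0.332 and 0.117). Ppargc1a, with 27 and 19, 19 and 16, and 59 and 6 UMIs, was not called at -0.62 ± 0.35 (adjusted p = 0.327).

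The related gene lists differed in size of change. The 17 citric acid cycle genes, which burn the acetyl-CoA of beta-oxidation, were all lower in BZ2 with a median of -0.76. The 12 cardiomyocyte genes had a median of -0.81 and 8 of 12 lower, and 22 other contractile genes had -0.42, with 4 lower and 1 higher. Of 57 other genes of fatty acid handling 49 were tested, 7 were lower, 0 were higher and the median was -0.19. Among the 7 called, the 3 largest falls were those of Dgat2 (triglyceride synthesis, -1.03), Acacb (malonyl-CoA synthesis at the mitochondrion, -0.76) and Pdk2 (a sister kinase of Pdk4, -0.67). The summed border stress list (Nppa, Nppb, Ankrd1, Xirp2, Flnc and Clu), by contrast, stood at 26319.5, 41918 and 38252 CPM in BZ2 and at 8062, 14661 and 11470.1 CPM in RZ. The 8 macrophage markers (1347 to 1812 CPM in RZ, 2156 to 3037 CPM in BZ2, 5 of 8 higher) and the 6 fibroblast markers (2717 to 3666 CPM, then 5901 to 8835 CPM, 3 of 6 higher) moved with the zones. The 4 haemoglobin genes were all lower in BZ2 (6873 to 33250.5 CPM in RZ, 3632 to 12457 CPM in BZ2), and no endothelial marker of 6 was called. The part of these cells in the members' change was not tested.

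Per cardiomyocyte UMI few members passed the edgeR test in BZ2, although many had a lower ratio in each heart. Of the 32 members 3 were called lower (0.0713% of all genes, 7 in number) and 0 were higher (23.3% of all genes). The 3 were Plin5, Pdk4 and Acot1. Plin5 stood at 1.51, 0.907 and 1.22 per 1000 cardiomyocyte UMIs in RZ and at 0.898, 0.459 and 0.455 in BZ2, without overlap by a narrow margin. Its log2 change was -1.01 ± 0.39 (adjusted p = 0.0455), lower in 3 of 3 hearts. Pdk4 gave -1.36 ± 0.52 (adjusted p = 0.042) and Acot1 -1.58 ± 0.61 (adjusted p = 0.0467). These calls were close to the threshold: 0 members were called without the female-labelled section (0.00998% of all genes) or the male-labelled section (0%), and 6 without the 3 dpi section (0.325%). DESeq2 called 1 member lower (0.0408%), and edgeR called 0 without the count filter (0.0125%) or the section block (0.0106%). The count was 2 (0.0966%) where separate cardiomyocyte genes set the zones and the ratio, with Plin5 (adjusted p = 0.0669) and Pdk4 (0.146) lost. The other 4 genes lower among all tested were Efnb3, Ces1d, Wnk2 and Pla2g5, of which Ces1d is a carboxylesterase that hydrolyses lipids and Pla2g5 a secreted phospholipase.

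Before scaling, 19 of the 32 members had a lower ratio to cardiomyocyte UMIs in BZ2 than in RZ in all 3 hearts, as had 1.89% of all genes. Most of the 19 were not called. Ech1 had log2 ratios of -0.72, -0.72 and -0.81 in the 3 hearts, with an estimate of -0.75 ± 0.30 (adjusted p = 0.0501). Hadh, the short-chain hydroxyacyl-CoA dehydrogenase, had -0.51, -0.51 and -0.47 (adjusted p = 0.216), and Acadvl, the very long-chain acyl-CoA dehydrogenase, had -0.43, -0.38 and -0.36 (adjusted p = 0.285). For both genes the hearts lay closer together than the standard errors of the fit, 0.33 and 0.30. In all, 25 of the 32 members had a negative estimate. The median was -0.19, against 0.74 for all genes, 0.29 for the other contractile genes and -0.04 for the citric acid cycle. The 12 cardiomyocyte genes that form the ratio had 8 negative estimates and a median of -0.09. Acadl, the long-chain dehydrogenase, barely moved (8.36, 8.42 and 9.85 per 1000 in RZ, 8.05, 7.69 and 9.61 in BZ2, -0.07 ± 0.30). Cpt1a had the highest estimate, 0.67 ± 0.42 (adjusted p = 0.197).

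**Figure D3:**
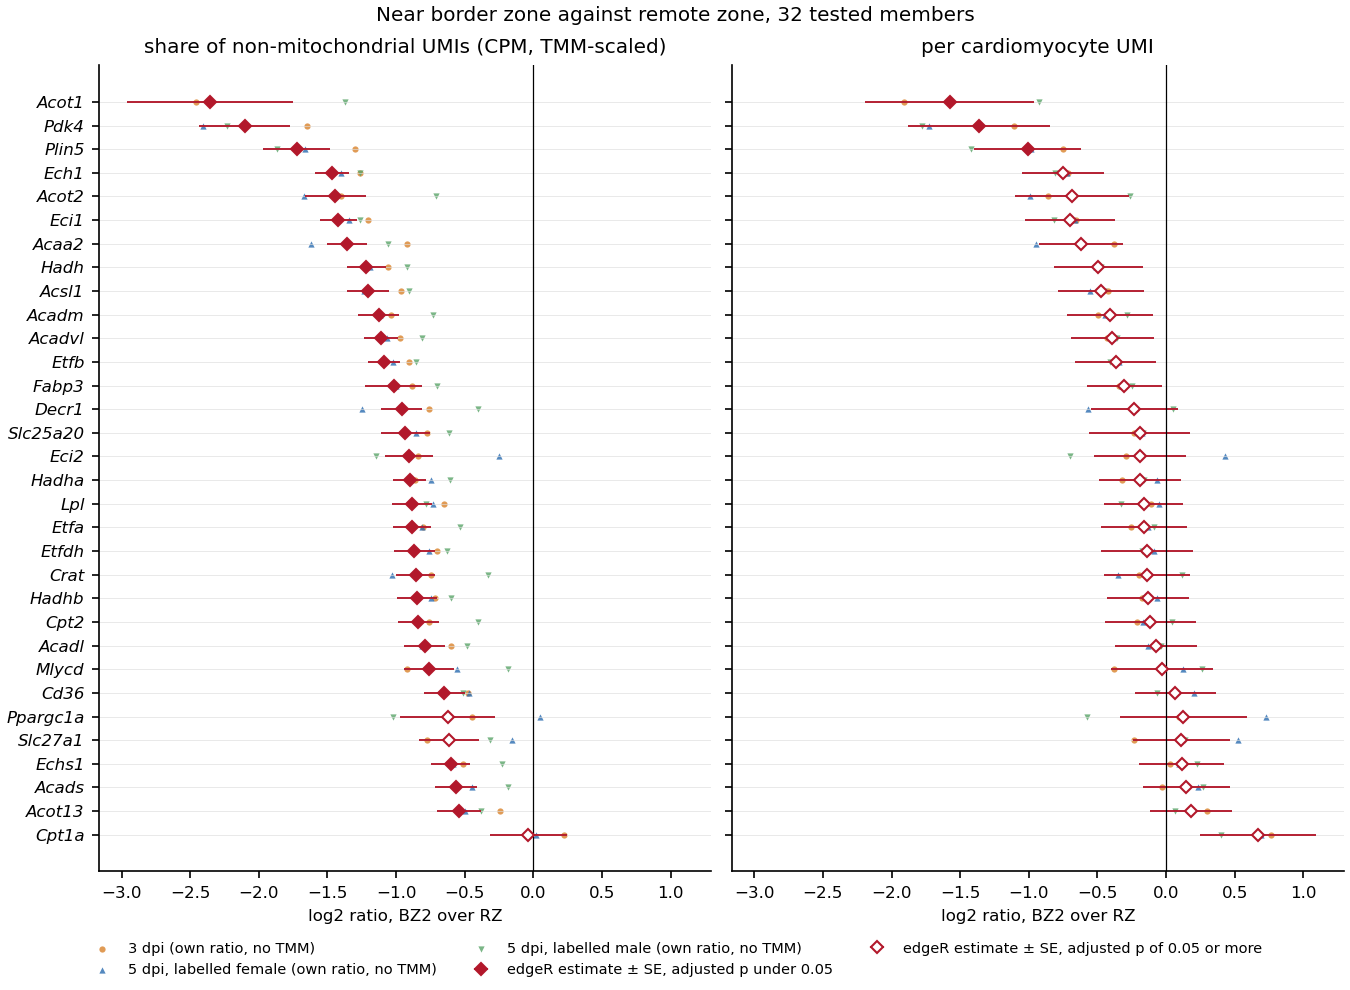
Log2 ratio of BZ2 over RZ for the 32 tested members, as CPM (left, estimates after TMM scaling, which shifts them by -0.16) and per cardiomyocyte UMI (right); small markers are each section's own unscaled ratio, diamonds are edgeR estimates with SE bars, filled where the adjusted p is under 0.05. On the left 29 diamonds are filled and only Cpt1a sits near 0, on the right only Acot1, Pdk4 and Plin5 are filled; Acot1 has no own ratio in the female-labelled 5 dpi section, with 0 UMIs in BZ2.

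At BZ1 the members summed to 19606, 13427 and 17843 CPM in the 3 hearts, between RZ and BZ2 in each. Single members did not all follow this order, as the uncalled estimates of Ppargc1a (-0.84 in BZ1, -0.62 in BZ2) and Cpt1a (0.16 and -0.04) show. In the edgeR fit Ech1 was the 1 member called lower (1178, 626 and 634 CPM, -0.73 ± 0.12, adjusted p = 0.0133), and in that fit it was also the only gene lower among all tested (0.0102%, with 0.0612% higher). The count was 11 with DESeq2 (0.54% of all genes), 12 without the count filter (0.475%), 10 with a lower infarct limit (0.277%), and 0 without the section block or with separate cardiomyocyte genes (0% in both). Without the 3 dpi section 4 members were lower (0.395%), and without either 5 dpi section 0 (0%). The members' median was -0.49, of which -0.11 was the TMM shift. Per cardiomyocyte UMI edgeR called 0 members lower (0% of all genes) and 0 higher (0.122% of all genes), and no member had an unadjusted p under 0.05 in either direction.

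Without Fabp3, the summed level per 1000 cardiomyocyte UMIs fell step by step towards the infarct in all 3 hearts. At 3 dpi it was 179 beyond 6 steps, 161 at 5 to 6 steps, 158 at 3 to 4 steps and 145 at 1 to 2 steps. The female-labelled 5 dpi section ran 148, 146, 137 and 129, and the male-labelled section 153, 146, 140 and 127. This order, the same in each heart, is a description and no test was run on it. Plin5 ran 1.68, 1.17, 1.12 and 0.898 at 3 dpi, 1.04, 0.645, 0.517 and 0.459 in the female-labelled section, and 1.18, 1.42, 1.18 and 0.455 in the male-labelled section, where only the last step was low.

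**Figure D4:**
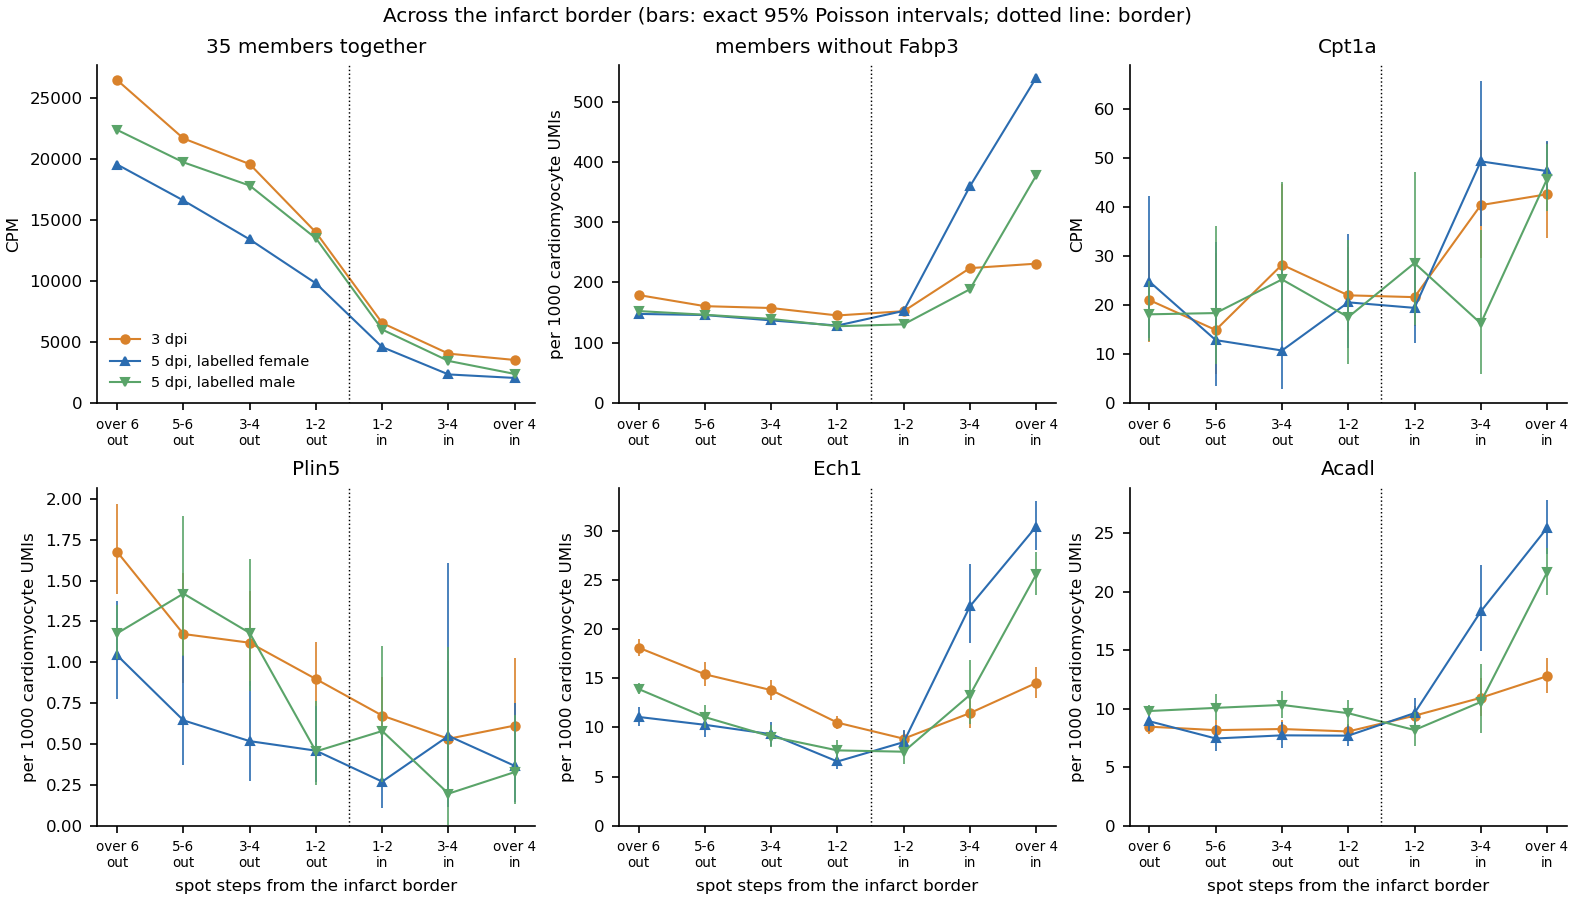
Level in bands of distance from the infarct border (spot steps outside, left of the dotted line, and inside), 1 line per infarcted section: summed CPM of the 35 members, the sum without Fabp3 per 1000 cardiomyocyte UMIs, Cpt1a in CPM, and Plin5, Ech1 and Acadl per 1000 cardiomyocyte UMIs. Bars on the single genes are exact 95% Poisson intervals; the sums fall towards the border in all 3 sections, Cpt1a is above its outside levels beyond 4 steps inside, and Acadl is flat outside.

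Inside the infarct zone the members' share of the RNA was lowest. The sums were 4865 CPM at 3 dpi, 2477 CPM in the female-labelled 5 dpi section and 2866 CPM in the male-labelled section. Of 32 members 30 were lower than in RZ and 1 was higher, against 25.9% lower and 28.2% higher of all genes. The median log2 fold change was -2.72 for the members and 0.08 for all genes, with a TMM shift of -0.38. The spots of IZ were chosen for a low cardiomyocyte share, and other lists of muscle genes were lower too. All 12 cardiomyocyte genes were lower with a median of -3.94, all 17 citric acid cycle genes with -2.37, and 21 of the 22 other contractile genes with -2.48. Plin5 fell most (13.0, 2.26 and 3.51 CPM in IZ, -4.63 ± 0.24, adjusted p = 2.27e-12). Fabp3 (1145, 317 and 583 CPM, -3.97 ± 0.23, adjusted p = 1.08e-11) and Ppargc1a (-3.69 ± 0.33) came next, and Acot1 had the smallest fall among the called members (-1.58 ± 0.38, adjusted p = 0.00147). Acot1 was lower in 2 of 3 hearts, with unscaled log2 ratios of -2.28 at 3 dpi, 0.12 in the female-labelled 5 dpi section and -0.70 in the male-labelled one. Acsl1 and Lpl were at -3.66 and -3.55.

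Cpt1a was the member that rose. It measured 18.8, 20.3 and 18.1 CPM in RZ and 33.7, 43.3 and 41.5 CPM in IZ, in the order 3 dpi, 5 dpi labelled female and 5 dpi labelled male. The zones did not overlap, and the log2 fold change was 0.68 ± 0.21 (adjusted p = 0.00844), higher in 3 of 3 hearts. Without the female-labelled section the adjusted p was 0.0535, and without the male-labelled section 0.115. It was 0.0699 where separate cardiomyocyte genes set the zones. Slc27a1 was not called, with 106, 62.1 and 50.8 CPM in RZ and 72.9, 68.3 and 66.5 CPM in IZ (-0.40 ± 0.18, adjusted p = 0.0667). The hearts went different ways for this gene, down at 3 dpi and slightly up in both 5 dpi sections before scaling.

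Beside this, all 8 macrophage markers were higher in IZ (7353, 11609.8 and 10980.3 CPM) than in RZ (1484, 1812 and 1347 CPM), and 4 of 6 fibroblast markers were higher and 1 lower (9502, 17274 and 15579.6 CPM against 2717, 3666 and 2802 CPM). All 4 haemoglobin genes and 3 of 6 endothelial markers were lower, and the 3 neutrophil markers tested were higher. Adipocyte markers were at 0 in RZ of every infarcted heart for all 6 genes. They gave 4, 225 and 1 UMIs in IZ. Their part in the Cpt1a level was not tested. Among the other fatty acid genes 25 were lower in IZ, most of all Dgat2 (-3.48), Acacb (-3.31) and the nuclear receptor Esrrg (-3.10), and 11 were higher, most of all the lipid droplet coat Plin2 (2.18), the lipase inhibitor Angptl4 (2.09) and the fatty acid carrier Fabp5 (1.69).

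On the cardiomyocyte scale the IZ values are a description. Its spots were chosen for a low share of the genes that form the ratio, so no call is drawn from that scale. The fit placed 19 members higher and 2 lower, where 97.6% of all genes were higher and 0.367% lower, with a median of 0.75 against 3.55 for all genes. With separate cardiomyocyte genes for the zones and the ratio 11 were higher and 4 lower, against 95.7% and 0.591% of all genes. Plin5 stood at 0.637, 0.336 and 0.405 per 1000 cardiomyocyte UMIs in IZ, under its RZ values in each heart. Fabp3 stood at 56.0, 47.1 and 67.2 per 1000 in IZ and at 79.7, 65.4 and 117 in RZ, so the zones overlapped between hearts while each heart had the lower value in IZ. Cardiomyocyte UMIs were a small share of the non-mitochondrial UMIs in IZ (0.672% to 2.05%), so the ratio there cannot be read as a level per cardiomyocyte. The part of other cells in it was not tested.

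Spots were also binned by cardiomyocyte share instead of distance. The zones rest on the same share, so the bins give no independent support to them. Spots at 0.5 to 0.75 of the 90th percentile of their section were compared with spots at 0.75 or more. As CPM 32 of 33 members were lower and 0 higher (5.58% and 3.87% of 10838 genes), with a median of -0.99 and a TMM shift of -0.17. With no section block 18 of 32 were lower (1.01% of all genes). The bins are cut on cardiomyocyte share, and other muscle genes were lower as well, with 17 of 17 citric acid cycle genes (median -0.81), 10 of 12 cardiomyocyte genes (-0.91) and 7 of 22 other contractile genes (-0.49). Ucp3 could be tested here and fell by 2.09 (SE 0.62, adjusted p = 0.0403, 0.0817 without the female-labelled section, and 0.115 where separate cardiomyocyte genes set the bins). Cpt1a was the exception at 0.14 ± 0.23 (adjusted p = 0.795). The bins are cut on the same genes that form the ratio to cardiomyocyte UMIs, so no call is drawn from that scale here. The fit gave 2 members lower (0.111% of all genes) and 1 higher (36.5%), and 0 and 0 with separate genes for the bins and for the ratio, with DESeq2 or without the section block. The control had 46 spots in the middle bin and 1099 in the high bin. Its sum without Fabp3 was 209 per 1000 cardiomyocyte UMIs in the middle bin and 191 in the high bin. The infarcted sections ran the other way, with 143 against 171 at 3 dpi, 126 against 146 in the female-labelled 5 dpi section and 129 against 154 in the male-labelled section. The control bin was closer to the high bin, with a cardiomyocyte share of 8.08% against 5.08% to 6.57% in the infarcted sections, and no test was made. Marker levels also differed between the bins. In the control the haemoglobin genes stood at 37589 CPM in the middle bin and 7639.6 CPM in the high bin, against 4068 and 6207 CPM at 3 dpi, 18472 and 27406 CPM in the female-labelled 5 dpi section and 14320.5 and 14499 CPM in the male-labelled section. The fibroblast markers stood at 1445 and 1039 CPM in the control, 6093 and 2622 CPM at 3 dpi, 8993 and 4136 CPM in the female-labelled section and 5942 and 2484 CPM in the male-labelled section. Their part in the sums was not tested.

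Remote muscle of the infarcted hearts was next set beside the control, with values only. The members' sums of 24800.4, 18472 and 21942 CPM in RZ were all under the 28102 CPM of the control. Other lists moved with this difference. The fibroblast markers stood at 1053 CPM in the control and at 2717, 3666 and 2802 CPM in RZ, and the macrophage markers at 798 CPM against 1484, 1812 and 1347. The border stress list stood at 1917 CPM against 8062, 14661 and 11470.1, and the haemoglobin genes at 8667 CPM against 6873, 33250.5 and 15423. Their part in the members' difference was not tested. Of the 28 members at 50 CPM, 18 were above the RZ range in the control (22.7% of 2918 genes) and 0 were below it (39.2%). Acadm alone reached 1.5-fold above (1.41% of all genes, with 9.08% at 1.5-fold below and 0 members among them), with 743 CPM in the control and 431, 376 and 427 CPM in RZ. With TMM factors 5 members reached 1.5-fold (3.5% of all genes), and with mitochondrial UMIs in the total 0 (0.788%). The median log2 ratio was -0.48 for members and 0.08 for all genes. It was -0.39 for the citric acid cycle, -0.34 for other fatty acid genes and 0.03 for other contractile genes. Per cardiomyocyte UMI the control was above the RZ range for 15 members (11.3% of all genes) and at 1.5-fold for 0 (0.685%), and 0 were below the range (55.9%) or 1.5-fold below (12.8%), with a median of -0.28 against 0.28 for all genes.

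Values of single members per cardiomyocyte UMI are given for both kinds of pattern, chosen after they were seen. Ech1 measured 22.0 per 1000 cardiomyocyte UMIs in the control and 17.2, 10.8 and 13.5 in RZ. Acadm measured 7.34 against 4.40, 4.33 and 5.22, and Hadhb, the thiolase subunit of the trifunctional protein, 13.6 against 10.1, 8.63 and 9.81. Etfa (5.43 against 3.81, 3.37 and 3.72) and Etfdh, which hands the electrons to ubiquinone (2.93 against 2.11, 1.72 and 2.24), showed the same order. For these 5 genes the control was above each RZ, and the 3 RZ values lay close together except for Ech1. Fabp3 (85.7 against 79.7, 65.4 and 117), Acadl (8.51 against 8.36, 8.42 and 9.85), Plin5 (1.38 against 1.51, 0.907 and 1.22) and Cpt1a (0.208 against 0.192, 0.234 and 0.222) overlapped the control.

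**Figure D5:**
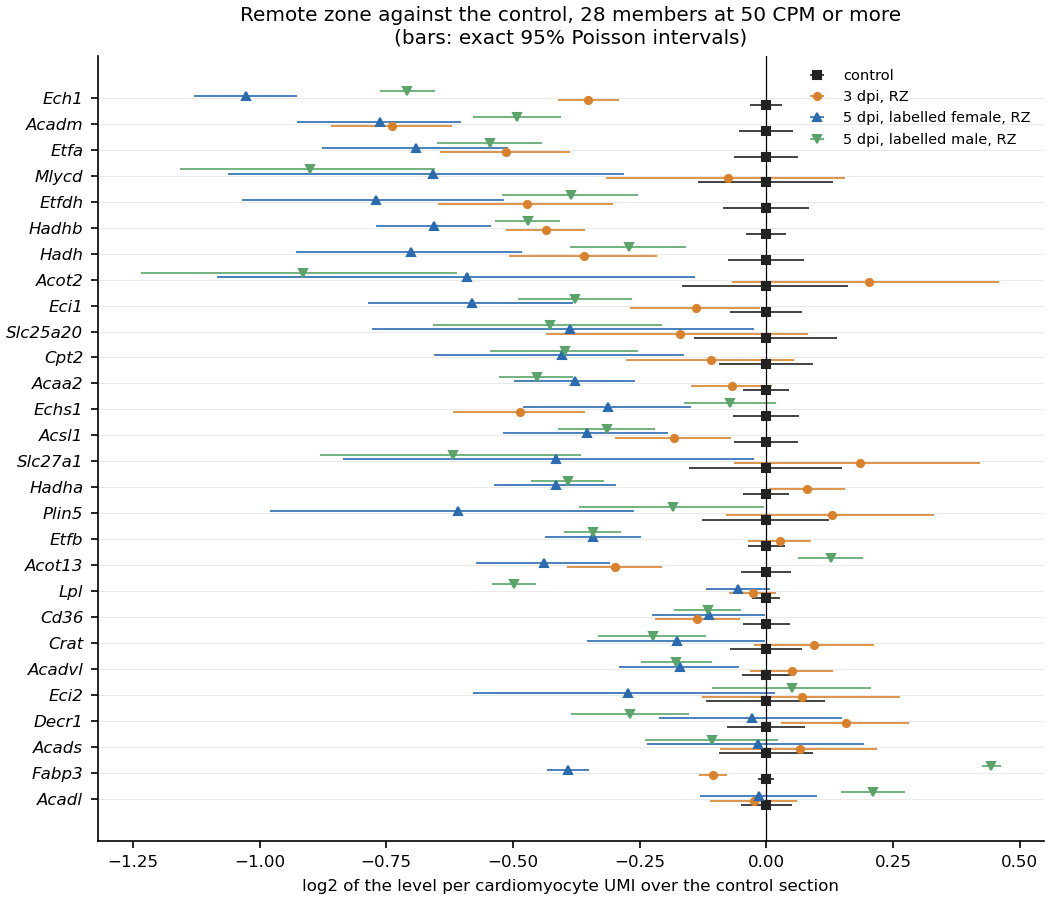
Log2 of each member's level per cardiomyocyte UMI in the remote zone of the 3 infarcted sections over that of the control, for the 28 members at 50 CPM or more, with exact 95% Poisson intervals as bars. Control markers sit at 0; Acadm, Ech1, Etfa, Etfdh and Hadhb lie left of 0 in all 3 sections, and Acadl and Fabp3 lie on both sides.

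In spots of equal cardiomyocyte share the gap was smaller. The window from 9.57% to 10.8% (the middle of the control's range) held 572 control spots and 131, 43 and 98 spots of RZ. It lay above the 90th percentile of the share in the female-labelled (8.19%) and male-labelled (9.28%) 5 dpi sections. At 3 dpi that percentile lay inside the window. The 5 dpi spots were thus the highest in cardiomyocyte share of their sections, while the control spots were typical of theirs. The part of this choice in the smaller gap was not tested. The members summed to 28398 CPM in the control and 26843, 21932 and 26588 CPM in RZ. Of 29 members at 50 CPM, 13 were above the RZ range (18.3% of 3084 genes) and 0 below it (23.7%). Acadm again stood alone at 1.5-fold above (0.94% of genes, with 3.02% at 1.5-fold below and 0 members among them), with 757 CPM against 487, 447 and 478. The median log2 ratio was -0.22 for members and 0.02 for all genes. It was -0.27 for other fatty acid genes, with 11 of 26 above the RZ range, -0.19 for the citric acid cycle, with 9 of 17, and 0.16 for other contractile genes, with 4 of 21. Markers still differed in these spots. The border stress list stood at 1902 CPM in the control and at 5405, 9583 and 2995 CPM in RZ, the fibroblast markers at 1024 against 1896, 2184 and 1332 CPM, and the haemoglobin genes at 6952 against 7072, 27142 and 14006 CPM. Their part in the gap was not tested. Plin5 (144 against 158, 146 and 143 CPM) and Cpt2 (261 against 229, 166 and 186 CPM) show the spread among members, overlapping in the former and not in the latter.

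Values at 3 and 5 dpi are given side by side, and no test between them was made, with 1 and 2 hearts. In RZ the 35 genes gave 253 UMIs per 1000 cardiomyocyte UMIs at 3 dpi and 213 and 268 in the female-labelled and male-labelled 5 dpi sections, so 3 dpi lay between them. Without Fabp3 the sum was 173 at 3 dpi and 147 and 152 at 5 dpi. Ech1, Hadha (10.9 against 7.74 and 7.87) and Etfb (16.0 against 12.4 in both) were higher at 3 dpi in RZ, while Acadl stood at 8.36 against 8.42 and 9.85, with overlapping counting intervals for the first pair, and Fabp3 at 3 dpi lay between the 5 dpi sections.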

How the data were processed

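The authors sequenced 1 Visium section per heart and deposited raw UMI counts per gene and spot, made with Space Ranger 1.3.1 per the file headers. Their processing notes name mm10 and their methods an Ensembl-based mouse reference with GFP added, so the build was not settled and no file coordinates are printed. Spots under tissue were kept from 500 UMIs and 250 detected genes upwards, unless over 50% of their UMIs were mitochondrial. In the male-labelled 5 dpi section, 623 spots with tissue-like counts were not marked as under tissue and were left out. A spot may hold several cells and part of others, and no doublet caller was run.

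Counts were summed per section and zone, scaled to CPM of non-mitochondrial UMIs or per 1000 cardiomyocyte UMIs, and tested with edgeR 4.0.16 (quasi-likelihood, TMM, filterByExpr, section as a block) in R 4.3.3 with limma 3.58.1. The test per cardiomyocyte UMI used those UMIs as library size without TMM. Adjusted p values are Benjamini-Hochberg over all genes tested, with a threshold of 0.05. DESeq2 1.42.0 was an alternative. Tables and figures used Python 3.11.15 with NumPy 2.4.6, pandas 2.3.3, SciPy 1.17.1 and matplotlib 3.10.9. The scripts were tested on simulated data. Poisson intervals are exact, at 95%, and cover counting error only. Control comparisons, with 1 heart, count genes that reach 50 CPM in any section and use no test. The other settings tried were RLE or no scaling, no count filter, no section block, each section left out, a lower infarct limit, all spots under tissue, mitochondrial UMIs in the total, another fold, and separate cardiomyocyte genes for zones and for the ratio.

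The members and all lists were chosen with earlier results of these data known. Members were named with full values by a rule: the largest and smallest changes past the threshold, any against the median, the highest CPM in each role, and those under 50 UMIs as counts. Genes given beyond it (among them Lpl, Cd36, Acadm, Acadl, Hadhb, Hadha, Etfa, Etfdh and Cpt2) were chosen after their values were seen.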

Additional observations from a re-analysis of the deposited data

Results flagged for a closer look

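Of the 32 members compared between the infarct zone and the remote zone per cardiomyocyte UMI, 9 had an unscaled log2 ratio at 3 dpi opposite in sign to both 5 dpi hearts (0.791% of all genes), and for 5 of these each ratio was beyond counting error (0.144% of all genes). Acadvl was at -0.36 at 3 dpi and at 0.80 and 0.49 in the female-labelled and male-labelled 5 dpi hearts. Ech1 was at -0.71 against 0.76 and 0.37, and Eci1 at -0.60 against 0.83 and 0.37. Acaa2, at -0.15 against 0.68 and 0.30, and Acot2, at -0.48 against 0.91 and 1.04, had the same order. The infarct zone was chosen for a low share of the genes that form this ratio, so no call is drawn from it. In the fit on this scale 97.6% of all genes were higher. Few genes could thus show opposite signs, and the all-gene shares are no measure for the members. The difference between time points was not tested. The cardiomyocyte share of the infarct zone also differed, at 2.05% for 3 dpi and 0.672% and 0.868% at 5 dpi, and its part in this order was not tested.

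In the 623 spots of the male-labelled 5 dpi section that were not marked as under tissue, and that no comparison used, Cpt1a stood at 51.1 CPM (exact 95% Poisson interval 42.2 to 61.4, 114 UMIs), above the 21.1 CPM of the control. These spots also differed from the control in fibroblast markers (12295 against 1053 CPM), macrophage markers (6277 against 798 CPM), haemoglobin genes (65502 against 8667 CPM) and cardiomyocyte genes (16906 against 101295 CPM), whose part in the Cpt1a level was not tested.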

How the results depend on the processing

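Among the alternative values computed for the counts and medians of members, 225 stayed close to the original and 63 moved. Of the values for single called members and for counts over all genes, 1221 kept their side of the threshold or their size, 163 member calls were lost, 38 counts over all genes moved and 0 directions turned. The 30 members lower in the infarct zone stayed between 29 and 33 under every setting run (17.1% to 27.3% of all genes). The member higher there, Cpt1a, was lost (0 members) with separate cardiomyocyte genes for zones and ratio, and ranged from 0 to 1 with 1 section left out, while the median was -2.34 without a scaling factor. For BZ2 as CPM the 29 members lower became 5 with no section block (0.212% of all genes) and 16 to 26 with 1 section left out (0.688% to 4.34%). The median of -0.90 became -0.74 without a scaling factor, -1.22 with a lower infarct limit and -0.80 with separate cardiomyocyte genes. For BZ1 as CPM the 1 member lower became 11 with DESeq2, 12 without a count filter, 10 with the lower limit, and 0 with no section block or with separate cardiomyocyte genes, with 0 to 4 when 1 section was left out, and the median was -0.39 without a scaling factor. Per cardiomyocyte UMI in BZ2, the 3 members lower became 1 with DESeq2 and 0 with no count filter or no section block, and ranged from 0 to 6 with 1 section left out. With the lower limit 1 member was higher (51% of all genes), and the median was -0.26, or -0.29 with separate cardiomyocyte genes. In BZ1 it was -0.10 and -0.18 under these settings. In the infarct zone per cardiomyocyte UMI, 1 member was lower with no section block (0.233% of all genes) or with the lower limit (0.277%). With separate cardiomyocyte genes 4 were lower (0.591%) and 11 were higher (95.7%). With 1 section left out, 1 to 3 were lower (0.177% to 0.407% of all genes) and 8 to 25 higher (95.5% to 98.4%). For cardiomyocyte share as CPM, 18 members were lower with no section block (1.01% of all genes). The median was -0.83 without a scaling factor, -0.82 with separate cardiomyocyte genes and between -1.10 and -0.98 with 1 section left out. On the ratio, the 2 members lower became 0 with DESeq2 (0.0369% of all genes), no section block (0.0285%) or separate cardiomyocyte genes (0.0479%). The count was 1 without a count filter (0.0374%) and 0 to 5 with 1 section left out (0% to 0.266%). The 1 higher became 0 with DESeq2 (34.3%), no section block (11.3%), separate cardiomyocyte genes (9.6%) or no count filter (20.4%). It was also 0 with all spots under tissue (35.7%) or without Mb and Ckm (31.7%), and 0 to 1 with 1 section left out (0.357% to 55.4%). The median on the ratio was -0.28 with separate cardiomyocyte genes. Against the control, 9 members were past the fold over whole sections with mitochondrial UMIs in the total. In the remote zone 0 were at the other fold (0.206% of all genes) or with mitochondrial UMIs in the total (0.788%), and 5 with TMM factors (3.5%). In the matched window 0 were at the other fold (0.13%). Per cardiomyocyte UMI over whole sections 1 was higher in the control (0.624% of all genes) and 1 lower (81.3%) at the other fold. Among all genes, those lower in BZ2 as CPM numbered 464, against 20 with no section block, 290 without a scaling factor, 298 with separate cardiomyocyte genes, 737 with the lower limit and 69 to 373 with 1 section left out, and those lower in the infarct zone 2537 against 1678 without a scaling factor. The causes of these shifts were not tested. The zones of a section share its heart, so the section was the block throughout. Hearts could not be paired between groups, because the replicate numbers do not pair them, with 1 heart in the control and at 3 dpi. Acot1 and Pdk4 had few UMIs in BZ2, and this depth limits their estimates.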
